A study of Homo sapiens with 2 samples.

Results

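The genes examined here were 7 members of the BCL2 family, which decides whether a stressed cell lives or dies, and the measurement was binding of oestrogen receptor α (ERα) in the chromatin around them. Peaks of the deposited list were taken when their centre lay within 100 kb of the listed transcription start site (TSS) of BCL2, BCL2L1, MCL1, BCL2L11, BMF, BIK or BAK1. For BCL2 the whole gene body was added. This rule, which uses position and no measured level, gave 18 of the 12688 peaks. The data came from T47D, an established ERα-positive human breast cancer line maintained in medium with 10% FBS. Cells spent 48 h without steroids and then received 10 nM 17β-estradiol, the natural ligand of the receptor, for 45 min. There was 1 library immunoprecipitated with the H-20 antibody against ERα and 1 input library made without antibody, also from estradiol-treated T47D cells. No untreated sample was analysed, so the peaks describe where ERα was found under estradiol and not a response to it, and with 1 library of each kind no value has a replicate error and no test between groups exists.

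Proteins of this family meet at the outer membrane of the mitochondrion. The pro-survival members BCL2, BCL-XL (the main product of BCL2L1) and MCL1 hold the pore-forming effectors BAX and BAK in check. BH3-only proteins such as BIM (the product of BCL2L11), BMF and BIK bind the pro-survival members and so release the effectors, and BAK, the product of BAK1, is itself one of the proteins that open the membrane. In ERα-positive breast cancer BCL2 is known as an oestrogen-responsive gene and is widely used as a marker of a functional receptor pathway.

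ERα peaks were found around all 3 pro-survival genes and around 2 of the 4 pro-death genes. BCL2 had 6 peaks, BCL2L1 had 5 and MCL1 had 1. Among the pro-death genes BMF had 5 and BIK had 1, while BCL2L11 and BAK1 had 0 within 100 kb. Thus 12 peaks lay in pro-survival regions and 6 in pro-death regions, and 5 of the 7 genes had at least 1. For comparison, chromosomes 1 to 22 and X were divided into 15169 tiles of 200 kb, the length of a window around a TSS. A peak centre fell in 36.4% of these tiles, and a tile held 0.832 peaks on average. Tiles include gene-poor and unsequenced stretches and are not centred on genes, so they give a level for the genome and not for genes of other families.

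**Figure D1:**
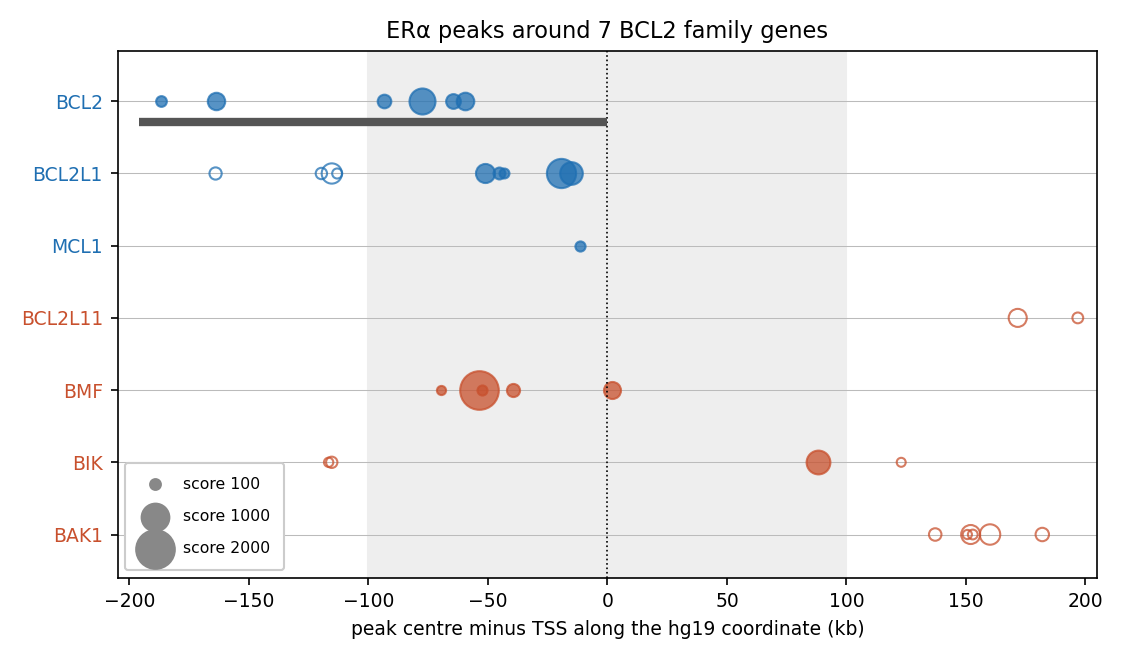
Each circle is an ERα peak, placed by the distance of its centre from the TSS along the hg19 coordinate in kb (horizontal axis), 1 gene per line, with an area that grows with the deposited score. Filled circles are the 18 peaks of the regions, open circles are other peaks within 200 kb, blue names are pro-survival genes, red names are pro-death genes, grey shading marks 100 kb on each side and the dark bar is the BCL2 gene body. All 6 peaks of BCL2 lie over the bar, and the windows of BCL2L11 and BAK1 are empty.

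Per 200 kb the 3 pro-survival regions carried a mean of 3.35 peaks and the 4 pro-death regions a mean of 1.5, a difference of 1.85. The size of this difference depended on the window and on the score. It was 3.96 with 50 kb on each side and the BCL2 body kept. That value counted 6 BCL2 peaks through the body, although BCL2 had 0 within 50 kb of its TSS. The difference was 0.542 with 200 kb on each side, and 1.18 for peaks at or above the upper quartile of scores. The genes overlapped: BMF, with 5 peaks per 200 kb, equalled BCL2L1 and stood above BCL2 (4.05) and MCL1 (1). Nearly the whole pro-death count came from BMF, which held 5 of the 6 peaks. A tile with 4 or more peaks, as in the window of BCL2 without the rest of the body, made up 6.21% of all tiles, and a tile with 5 or more, as for BCL2L1 and BMF, made up 3.94%. The windows of BCL2L11 and BAK1, with 0 peaks, were of the kind that most of the genome shows, 63.6% of tiles. Tiles with 1 or more peaks, as in the windows of MCL1 and BIK, made up 36.4%, and those with exactly 1 made up 18.1%.

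**Figure D2:**
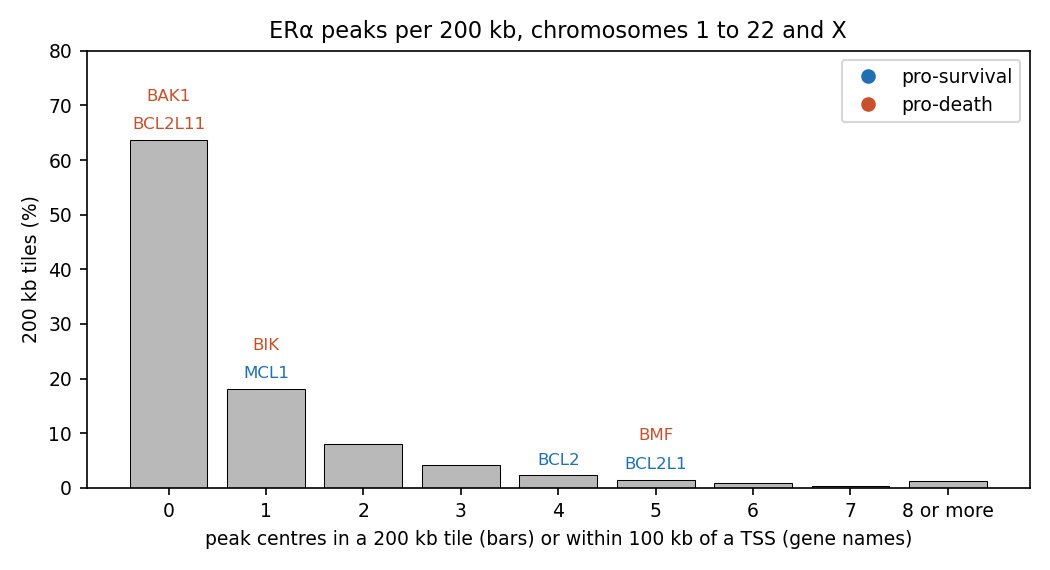
Grey bars give the percentage of 200 kb tiles of chromosomes 1 to 22 and X (vertical axis) by the number of ERα peak centres they hold (horizontal axis), and each gene name stands above the count within 100 kb of its TSS. BCL2L11 and BAK1 stand over the bar of 63.6% of tiles without a peak, while BCL2L1 and BMF stand at 5 peaks.

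Summed peak counts of the 2 roles, over 3 pro-survival and 4 pro-death genes, compared differently at different distances. Within 25 kb of a TSS there were 3 peaks at pro-survival genes, 2 of BCL2L1 and 1 of MCL1, and 1 at a pro-death gene, BMF. Within 50 kb the counts were 5 and 2, and within 100 kb they were 10 and 6. Within 200 kb, a distance chosen after the values were seen, they were 16 and 17, because BAK1 then gained 6 peaks, BIK 3 and BCL2L11 2. The summed count was therefore higher at the 3 pro-survival genes from 25 to 100 kb, and not within 10 kb (0 against 1) or 200 kb. These sums are not divided by the number of genes, which is larger for the pro-death role. With 200 kb on each side, the mean density per 200 kb was still higher at pro-survival genes, 2.67 against 2.12 peaks. Just inside the limit lay the BCL2 peak at 93.5 kb (score 197.19) and the BIK peak at 88.1 kb (score 723.82). Just outside it lay a BCL2L1 peak at 113 kb (score 79.43), followed by a BCL2L1 peak (score 507.18) and a BIK peak (score 117.18), both at 115 kb.

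**Figure D3:**
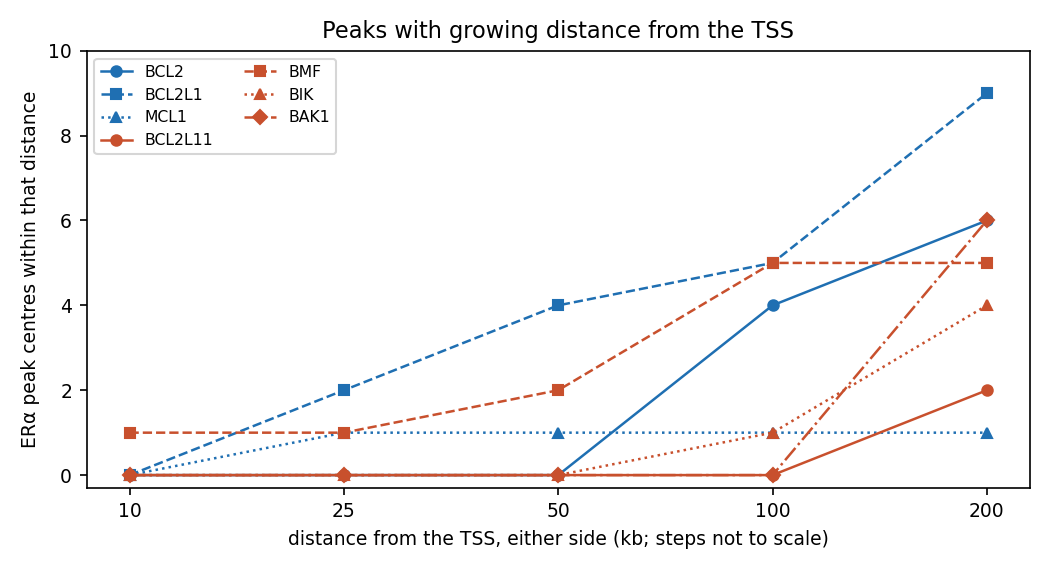
Lines give the number of ERα peak centres (vertical axis) within 10, 25, 50, 100 and 200 kb of the TSS on either side (horizontal axis, steps not to scale), with pro-survival genes in blue and pro-death genes in red. BAK1 goes from 0 within 100 kb to 6 within 200 kb, and BMF is the only gene of the 7 with a peak within 10 kb.

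None of the 18 peaks overlapped a listed TSS. The nearest was at BMF, with its closest edge 1783 bp away, and the next nearest were at MCL1 and BCL2L1, with edges 10904 and 14678 bp away. Promoter sequences of the start sites were searched for the receptor's recognition sequence, the oestrogen response element, which is the arm GGTCA, any 3 bases and the arm TGACC, and for a single arm on either strand (GGTCA or TGACC on the strand printed). The table at hand, from RefSeq with build GRCh38.p14, holds 7 windows for 5 of the genes, each from 250 bases before to 50 bases after a start site, and MCL1 and BIK have no entry in it. The full element was found in 0 of the 7 windows and in 0.0570% of all 35116 windows of the table. A single arm was found in the 2 windows of BMF and in none of the 5 windows of BCL2, BCL2L1, BCL2L11 and BAK1, while 37.4% of all windows hold one. The 250 bases before each BMF start site are printed because BMF has the peak nearest to a TSS, and those before the BCL2 start site for contrast, since BCL2 has the most peaks but none near its TSS. Capitals mark these arms, and all 3 sequences lie on the minus strand, at chr15:40108880-40109129, chr15:40106967-40107216 and chr18:63319770-63320019 of GRCh38.p14.
BMF first: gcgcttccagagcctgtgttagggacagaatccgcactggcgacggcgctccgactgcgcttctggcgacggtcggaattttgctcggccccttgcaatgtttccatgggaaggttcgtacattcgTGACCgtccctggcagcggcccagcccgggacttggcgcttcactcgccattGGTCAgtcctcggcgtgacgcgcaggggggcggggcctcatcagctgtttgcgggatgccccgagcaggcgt
BMF second: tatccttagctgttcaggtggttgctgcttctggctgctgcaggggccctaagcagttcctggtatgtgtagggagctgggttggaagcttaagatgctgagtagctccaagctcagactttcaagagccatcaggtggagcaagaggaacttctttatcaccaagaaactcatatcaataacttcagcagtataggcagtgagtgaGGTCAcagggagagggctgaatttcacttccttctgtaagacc
BCL2: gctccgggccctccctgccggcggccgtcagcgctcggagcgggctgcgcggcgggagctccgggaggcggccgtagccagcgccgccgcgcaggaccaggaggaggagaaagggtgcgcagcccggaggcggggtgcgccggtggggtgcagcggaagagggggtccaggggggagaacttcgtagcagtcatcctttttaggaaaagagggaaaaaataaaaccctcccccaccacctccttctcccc
The arms in the first BMF window begin 124 and 72 bases before its start site, and that in the second begins 43 bases before. These letters are a description of the reference sequence: the sequence under the ERα peaks themselves was not read, because no genome of build hg19 was used here. Whether the nearest BMF peak covers any of the printed bases was not determined, and a link between arms and peaks was not tested.

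BCL2, the founding member of the family, carried all of its ERα peaks inside the gene. Its body runs from 60790579 to 60986613 on chromosome 18 (hg19), on the minus strand, so that the TSS is at 60986613, and all 6 peaks lay downstream of the TSS within the 196 kb of the body. Together they covered 1.59% of it. The peak with the highest score, 876.66, was at chr18:60908629-60909307, 77.6 kb into the gene. It scored above 87.9% of the list. Nearest the TSS was a peak at chr18:60926619-60927181 with a score of 369.27, 59.7 kb into the gene, and 4.72 kb further in followed one at chr18:60921934-60922419 with a score of 240.74. The fourth peak from the TSS, at chr18:60892922-60893318, scored 197.19. These 4 peaks, which make up the TSS window, lay within 33.8 kb of one another from the first centre to the last.

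The remaining BCL2 peaks were separated from this group by 70.1 kb without a peak. At chr18:60822744-60823288 the score was 360.66, 164 kb into the gene, and at chr18:60799738-60800189 it was 100.24, 187 kb into the gene. The latter is the only BCL2 peak that scored below the median of the list. On chromosome 18, 2.82% of the 200 kb tiles held 4 or more peaks and 25.4% held any. Over tiles as long as the BCL2 region, 296.0 kb, 4.72% on all chromosomes held 6 or more peaks.

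Upstream of BCL2 no ERα peak was listed for 6.43 Mb. The next peak beyond the TSS was at chr18:67420163-67420451 with a score of 160.14. The stretch of 6.49 Mb that begins at the first intragenic peak and contains the BCL2 TSS was the longest between neighbouring peaks on chromosome 18. Of 12624 such stretches on chromosomes 1 to 22 and X, only 7 were at least as long, this one included, and these 7 took up 2.68% of the sequence, whereas the median stretch measured 54.1 kb. The peaks of BCL2 thus lay at the edge of a long peak-free part of the chromosome, on the side of the gene body. Whether copy number or mappability differs across this stretch in T47D cells was not tested.

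BCL2L1 had the most peaks within 50 kb of its TSS among the 7 genes, 4. The gene encodes BCL-XL and, by alternative splicing, a shorter product that promotes death. Its TSS was taken at 30311792 on chromosome 20 (hg19), on the minus strand, and all 5 peaks lay downstream of it in 2 groups. The group nearer the TSS consisted of a peak at chr20:30296075-30297114 with a score of 651.17, 15.2 kb from the TSS, and one at chr20:30292021-30292805 with a score of 1122.51, 19.4 kb from it. The latter was the highest score among the pro-survival genes and stood above 90.5% of the list.

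The group of BCL2L1 peaks further from the TSS held 3, between 43.1 and 51.3 kb. Their scores were 444.67 at chr20:30260207-30260852, 137.06 at chr20:30266193-30266906 and 76.57 at chr20:30268140-30269161. The last of these was wide for its score, with 1022 bp, wider than 98.5% of the peaks in the same score band (the list divided at its quartiles). Each of the 5 peaks had another within 10 kb. On chromosome 20, which is dense in ERα peaks, 47.6% of the tiles held a peak and 8.57% held 5 or more. A further 4 peaks lay downstream between 113 and 164 kb, with scores of 79.43 to 507.18. By gene order in the RefSeq table the next protein-coding genes on that side are COX4I2 and ID1, and peaks were not assigned to any gene.

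MCL1, whose product is short-lived and must be made continually, had a single weak peak. It lay at chr1:150540202-150541310, 11.5 kb from the TSS at 150552214 on chromosome 1 on the side of lower coordinates, and scored 82.99, above 33.2% of the list. At 1109 bp it was the widest of the 18 peaks and wider than 98.8% of the peaks in its score band. On the other side the next peak was 0.392 Mb away. Of the tiles on chromosome 1, 41.7% held at least 1 peak.

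BMF, a BH3-only protein that is held at the cytoskeleton until it is released to bind pro-survival proteins, was the pro-death gene with the most ERα peaks. Its TSS was taken at 40401075 on chromosome 15 (hg19), on the minus strand. The peak nearest the TSS was at chr15:40402858-40403415 with a score of 341.89, its centre 2.06 kb upstream. This was the only peak found upstream among the 16 peaks of genes whose strand was known. The other 15 lay downstream, 2 of them included only through the BCL2 body. All 16 belong to BCL2 (6), BCL2L1 (5) and BMF (5), and peaks of 1 gene are not independent. The share upstream at other genes was not computed, so no general preference for a side can be read from this count. The promoter table lists 2 start sites of BMF, 1913 bp apart, and which of them the hg19 position stands for was not determined, so the 2.06 kb are the distance to the listed position only.

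The other 4 BMF peaks lay 39.5 to 69.6 kb downstream. At chr15:40347056-40347933 the score was 2005.72, the highest of all 18 peaks and above 95.5% of the list. A peak at chr15:40348114-40348704 with a score of 80.83 followed after only 180 bases, and these 2 merged into 1 when peaks within 500 bp were joined. The remaining scores were 178.94 at chr15:40361316-40361898 and 56.19 at chr15:40331332-40331681. BMF therefore held both the highest and the lowest score of the 18. On chromosome 15, 34.2% of the tiles held a peak and 4.69% held 5 or more. By gene order the next protein-coding genes on the downstream side are SRP14 and EIF2AK4.

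BIK, a BH3-only protein of the endoplasmic reticulum membrane, had 1 distant peak. It lay at chr22:43594558-43595217, 88.1 kb from the TSS at 43506754 on chromosome 22 on the side of higher coordinates, and scored 723.82, above 85.6% of the list. MCAT, TSPO and TTLL12 are the next protein-coding genes on that side. Of the tiles on chromosome 22, 35.2% held a peak. Narrowing the window to 50 kb left BIK with 0 peaks.

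BCL2L11 and BAK1 had no ERα peak within 100 kb. For BCL2L11, which encodes the BH3-only protein BIM, the nearest peak was at chr2:112049847-112050469 with a score of 390.39, 172 kb downstream of the TSS at 111878491 on chromosome 2. A second followed at chr2:112075057-112075540 with a score of 101.25. The nearest peak upstream was 0.541 Mb away. On chromosome 2, 33.6% of the tiles held a peak, so a window without one was the commoner case there.

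For BAK1 the nearest peak was 137 kb upstream of the TSS at 33548070 on chromosome 6, at chr6:33684967-33685455, with a score of 155.59. It opened a row of 6 peaks that reached to 182 kb, with scores from 57.19 to 516.82, on the side where ITPR3, UQCC2 and IP6K3 are the next protein-coding genes. Downstream of BAK1 the nearest peak was 1.01 Mb away. On chromosome 6, 34.7% of the tiles held a peak.

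Scores did not separate the roles. The score is the value the authors' peak caller gave each peak, the sources used here do not state its scale, and it served only to rank peaks within the list. The median was 301 for the 12 pro-survival peaks (76.57 to 1122.51) and 260 for the 6 pro-death peaks (56.19 to 2005.72), so the pro-survival range lay inside the pro-death range. The list's median of 128 was reached by 9 of the 12 pro-survival peaks (75%, Wilson 95% interval 46.8 to 91.1%) and by 4 of the 6 pro-death peaks (66.7%, 30.0 to 90.3%). For all 18 peaks the share was 72.2% (49.1 to 87.5%), beside 50% in the list. The interval reaches below that 50%, but it treats peaks of 1 gene as independent and is not a test. The upper quartile of the list, 347, was reached by 3 peaks of BCL2, 3 of BCL2L1, 1 of BMF and 1 of BIK, and by none of MCL1. None of the 18 was among the peaks with a score of 3100 or more, which number 269 of the 12688 in the list. Such peaks are few, so their absence among 18 says little.

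**Figure D4:**
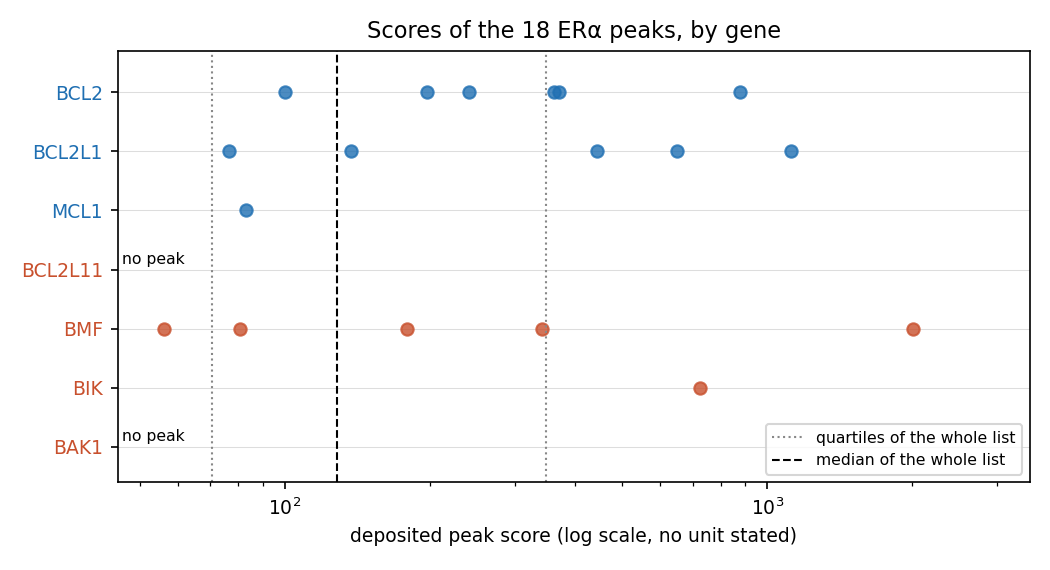
Each point is 1 of the 18 ERα peaks, by gene (vertical axis) and deposited score (horizontal axis, log scale, no unit stated), with the median of the whole list as a dashed line and its quartiles as dotted lines. Blue names are pro-survival genes and red names pro-death genes, and the blue points lie within the range of the red ones, whose highest, 2005.72, and lowest, 56.19, are both at BMF.

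Widths and the presence of neighbours overlapped between the 2 roles as well. The median width was 662.5 bp for the pro-survival peaks (397 to 1109 bp) and 587.0 bp for the pro-death peaks (350 to 878 bp), against 505.0 bp in the list. Another peak lay within 10 kb of 7 of the 12 pro-survival peaks (58.3%, Wilson 95% interval 32.0 to 80.7%) and of 2 of the 6 pro-death peaks (33.3%, 9.68 to 70.0%). In the list this share was 41.3%. Such intervals reflect counting error alone, as if peaks were independent, which neighbouring peaks of 1 gene are not.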

How the data were processed

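The only measurement was 1 deposited list of ERα peaks of T47D cells, ChIP over input. The score of each peak was used as the authors deposited it; its scale and the caller's version and threshold were not given in the sources used here. Peak names carry the MACS prefix, per the file, and CASAVA 1.8, Bowtie 0.12.9, HOMER and build hg19 are named, without roles, per the submitters' processing notes. Read depth is unknown. The genes, their hg19 positions and the comparisons were chosen with earlier results of these data known. Starts are counted from 0 in the list, and 1 was added for printing. Distances run from the peak centre to the TSS. Strands and promoters came from a RefSeq table of GRCh38.p14, and no coordinate was carried between builds. Lengths of hg19 came from GenomeInfoDb 1.38.1, and no peak ended past one. All 7 genes are named, with every peak of their regions. Further BCL2 family genes were not analysed here, for want of hg19 positions. The counting was tested on simulated data. Intervals are Wilson 95% intervals. Alternatives were other windows, score minimums, merging, overlap in place of centres, and BCL2 without its body. Python 3.11.15, pandas 2.3.3, NumPy 2.4.6, SciPy 1.17.1 and matplotlib 3.10.9 were used.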

Additional observations from a re-analysis of the deposited data

How the results depend on the processing

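Merging peaks within 500 bp, counting any overlap, or taking BCL2 without the rest of its body left the counts of 12 pro-survival and 6 pro-death peaks, the 5 genes with a peak and the difference in density of 1.85 per 200 kb within 1.5 times their values. With 50 kb on each side, and the BCL2 body kept, there were 2 pro-death peaks and a difference of 3.96. This setting counted 6 BCL2 peaks through the body, although BCL2 had 0 within 50 kb of its TSS. Among peaks at or above the upper quartile of scores there were 6 and 2 peaks and a difference of 1.18. With 200 kb on each side, chosen after seeing the data, pro-death peaks numbered 17 and the difference was 0.542. The difference in mean density was positive under each of these settings and for peaks at or above the median score. Summed counts, which cover 3 pro-survival and 4 pro-death genes, did not keep this order at every distance. Pro-survival against pro-death, they were 0 against 1 within 10 kb and 16 against 17 within 200 kb. The share of tiles with a peak was 22.4% for peaks at or above the median score and 13.3% for those at or above the upper quartile. It was 47.8% without tiles of peak-free stretches of over 2 Mb. That last setting leaves out only tiles without a peak, so the share could only rise. No paired analysis was possible because the ChIP and input libraries have no replicates. Unknown read depth limits which weak sites entered the list, so a window without a peak is not shown to lack binding.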
